A study of Homo sapiens with 6 samples.

Results

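DDIT4, the sestrins and the core genes of the mTOR pathway were compared between UM-Cis and UMSCC1 cells. Of 10 candidates (*DDIT4*, *SESN1*, *SESN2*, *SESN3*, *MTOR*, *RPTOR*, *RICTOR*, *TSC1*, *TSC2* and *DEPTOR*), the 8 that were gene symbols of the array annotation were taken from the 14812 genes tested, and *RPTOR* and *RICTOR* were not analysed here. The probe set of each gene was chosen by its mean signal over the 6 arrays, a step that decided nothing because each of the 8 genes had 1 probe set. *DDIT4* itself was taken up because it was among the largest decreases on these arrays, so its difference is given as a description with no test. UMSCC1 is a long-established line of oral squamous cell carcinoma (OSCC). UM-Cis is a derivative of it that was selected in cisplatin raised from 1 to 5 μg/mL over about 12 months, and it is 1 selected line with no second selection beside it. RNA was taken from 3 samples of each line grown in medium with serum and no cisplatin. The methods describe a parental line kept in vehicle solution in parallel with the selection as a control. Whether the UMSCC1 samples on the arrays were that line is not stated, so selection and time in culture cannot be told apart. Signals are log2 values of Affymetrix Human Gene ST arrays, on which a difference of 1 is a doubling.

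mTOR is a kinase that promotes protein synthesis and cell growth and restrains autophagy when growth factors, energy and amino acids are plentiful. DDIT4 (also called REDD1) is a short-lived protein that is made under hypoxia, DNA damage, amino acid shortage or glucocorticoid, and it restrains mTOR complex 1 through the TSC1-TSC2 complex, which switches off the GTPase RHEB. The sestrins are stress-induced proteins that act on the amino acid branch, where SESN2 holds back GATOR2 when leucine is not bound to it. GATOR1 in turn acts on the Rag GTPases that bring mTOR complex 1 to the lysosome.

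The 250 bases before the annotated start are shown for *DDIT4*, the stress-induced gene with the lower signal in UM-Cis. They are also shown for *SESN2* and *SESN3*, the sestrins with the higher mean signals. These genes share inducers and their mean signals differed in opposite directions, but *SESN2* did not pass (limma, adjusted p = 0.084). The windows were thus picked with the differences known, and their comparison is a description. The sequences are from RefSeq on GRCh38.p14, read 5′ to 3′ on the gene's own strand, at chr10:72273674-72273923 (plus strand) for *DDIT4*, chr1:28259268-28259517 (plus strand) for *SESN2* and chr11:95232476-95232725 (minus strand) for *SESN3*. Capitals mark the core of the hypoxia response element, ACGTG or GCGTG, searched on both strands.
DDIT4: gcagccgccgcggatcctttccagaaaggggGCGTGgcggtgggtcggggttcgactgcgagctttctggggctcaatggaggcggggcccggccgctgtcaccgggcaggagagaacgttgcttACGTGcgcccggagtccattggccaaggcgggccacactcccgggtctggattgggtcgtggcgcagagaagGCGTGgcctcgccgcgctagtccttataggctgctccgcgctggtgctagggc
SESN2: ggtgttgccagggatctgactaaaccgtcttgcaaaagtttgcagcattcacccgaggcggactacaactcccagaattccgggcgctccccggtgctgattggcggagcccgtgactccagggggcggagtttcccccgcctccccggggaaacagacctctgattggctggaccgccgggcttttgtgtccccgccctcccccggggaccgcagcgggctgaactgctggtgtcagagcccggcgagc
SESN3: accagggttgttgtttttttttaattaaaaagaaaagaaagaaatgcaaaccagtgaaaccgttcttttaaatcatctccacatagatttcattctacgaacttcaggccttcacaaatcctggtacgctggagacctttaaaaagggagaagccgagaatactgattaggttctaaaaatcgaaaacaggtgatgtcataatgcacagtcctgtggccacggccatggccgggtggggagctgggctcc
The *DDIT4* window held 3 matches to the hypoxia core, starting 219, 125 and 53 bases before the start, and the windows of *SESN2* and *SESN3* held 0. Matches were also found for *MTOR* (1), *TSC2* at start site 1 (2) and *SESN1* at start site 2 (1), whose mean signals were not lower in UM-Cis. The 2 of *TSC2* started 114 and 113 bases before the start, so they overlap and are 1 stretch matched on both strands. The share of all windows with 3 matches was not counted. At least 1 match was present in 43.2% of 35116 upstream windows of the same length. G and C made up 68.8% of the *DDIT4* window, 65.6% of the *SESN2* window and 42.8% of the *SESN3* window, against a median of 58% over all windows. CCAAT, searched on both strands and at no position shared with a core match, was found 2 times in the *DDIT4* window and 2 times in the *SESN2* window and was held by 32.0% of all windows. The GC box GGGCGG was found 0 times in the *DDIT4* window, 2 times in that of *SESN2* and 0 times in that of *SESN3*. It was held by 42.6% of all windows. GTAAACA, the core bound by FOXO factors, was absent from these 3 windows and was held by 2.98% of all windows. A match is a stretch of letters, not a known site, and binding was not measured.

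The labels call the arrays of each line by no number, 1 and 2, and values are given in that order. The array medians lay between 4.74 and 4.82. In a principal component analysis the leading component held 51.5% of the variance and the next one 28.6%. Deviations from the line means correlated by 0.505 between the arrays with no number, and by -0.433 to -0.327 between these and the numbered arrays of the other line. The 6 control genes measured differed by a median of -0.30 between UM-Cis and UMSCC1, and all genes by a median of -0.04, so each difference would be 0.24 more positive with the control genes set equal. The lines were checked against 8 measured markers of squamous epithelium. Of these, 2 were lower in UM-Cis (25%, against 4.60% of all genes), 0 were higher and 6 did not pass, with a median of -0.32. *KRT13* (-2.05) and *KRT5* (-1.94) were the lower ones, and their UM-Cis means of 4.20 and 4.68 lay under the array medians. *KRT14* (-0.92), *DSG3* (0.32) and *EPCAM* did not pass (limma, adjusted p = 0.059, 0.30 and 0.36). *EPCAM* had a mean of 10.30 in UM-Cis and 10.56 in UMSCC1. Of 5 measured markers of other cell types, 1 was higher in UM-Cis (20%, against 5.91% of all genes) and 0 were lower. The higher gene was *CD68*, a lysosomal glycoprotein of macrophages (1.41, limma, adjusted p = 0.0115). Its adjusted p was 0.0547 without UMSCC1 array 1 (limma) and 0.112 with the methods' t-test. The part of these marker shifts in the results below was not tested. Nothing states that the samples of a line were separate cultures, so each p-value speaks of the spread among these arrays alone, which may be technical. In lysates of whole cultures, fewer cells with a transcript and less transcript per cell cannot be told apart.

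*DDIT4* was 4.52-fold lower in UM-Cis. Its log2 signal was 7.47, 6.73 and 6.95 on the UM-Cis arrays and 9.05, 9.47 and 9.16 on the UMSCC1 arrays. The groups did not overlap, and the highest UM-Cis array lay 1.58 below the lowest UMSCC1 array. The means were 7.05 ± 0.38 (SD, n = 3) and 9.23 ± 0.22 (SD, n = 3), a difference of -2.18 with a standard error of 0.21. Taken between arrays of the same label, the difference was -1.58 for the arrays with no number, -2.75 for the arrays 1 and -2.20 for the arrays 2. Of the 14812 genes, 13 had a larger decrease. The difference lay between -2.48 and -1.94 in the 17 other settings of the fit. It was -2.18 by construction with the methods' t-test, the trended prior and the replicate block. The same holds for the dim probe set filter, the mean of probe sets and all probe sets. *DDIT4* was chosen for this difference, so the settings do not support it.

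*SESN3*, a sestrin known as a target of FOXO factors, had the largest rise among the 8 genes. Its log2 signal was 5.57, 4.96 and 5.05 in UM-Cis and 4.22, 3.94 and 3.83 in UMSCC1. All 3 UM-Cis arrays lay above all 3 UMSCC1 arrays, by at least 0.74, and the UMSCC1 values lay under the median of all probe sets, and no detection call was used. The means were 5.19 ± 0.33 (SD, n = 3) and 3.999 ± 0.20 (SD, n = 3), a 2.29-fold difference in signal (limma, adjusted p = 0.0071). The call held without each array in turn (adjusted p up to 0.0373) and was lost under the methods' t-test, adjusted over all genes as for limma (0.0786).

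*SESN2*, the leucine-binding sestrin, had a log2 signal of 7.38, 6.69 and 6.94 in UM-Cis and 6.41, 6.28 and 6.52 in UMSCC1. The groups did not overlap, and the UM-Cis array with no number stood highest. The means were 7.01 ± 0.35 and 6.40 ± 0.12 (SD, n = 3 each), a difference of 0.60 with a 95% interval from 0.17 to 1.04 that did not pass over all genes (limma, adjusted p = 0.084). With the array label as a block it passed (adjusted p = 0.0389). Between arrays of the same label, *SESN2* differed by 0.97 for the arrays with no number, 0.41 for the arrays 1 and 0.43 for the arrays 2.

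*SESN1*, a p53-induced sestrin, had a log2 signal of 5.78, 5.56 and 5.17 in UM-Cis and 5.52, 5.40 and 5.47 in UMSCC1. The UM-Cis arrays spread on both sides of the UMSCC1 arrays. The difference was 0.04 with a 95% interval from -0.35 to 0.44 (limma, adjusted p = 0.91), and it turned negative without the UM-Cis array with no number (-0.093).

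**Figure D1:**
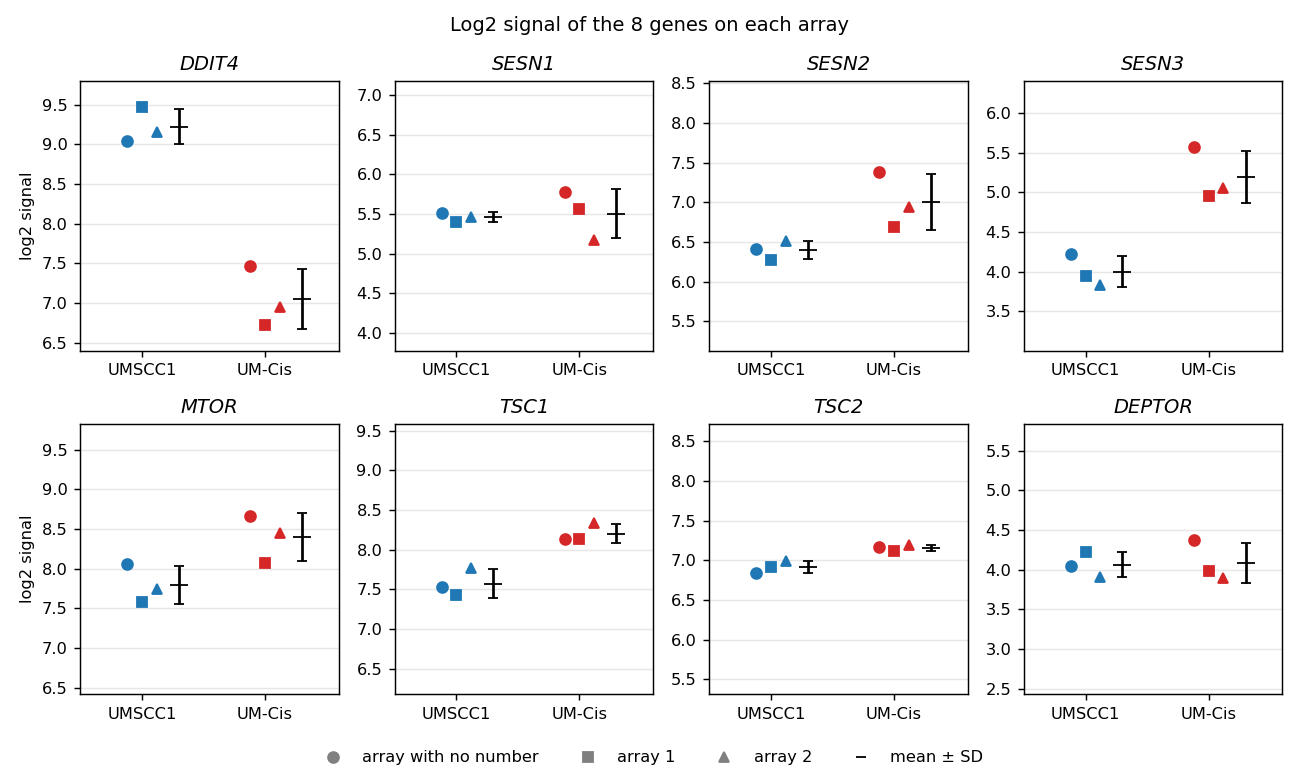
Log2 signal (y axis, each panel spanning the same number of log2 units) of the 8 genes in UMSCC1 and UM-Cis (x axis), with 1 symbol per array and the mean with its SD (n = 3) beside it. *DDIT4* lay lower on all 3 UM-Cis arrays and *SESN3* higher, while *SESN1* and *DEPTOR* overlapped between the lines.

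*TSC1*, the stabilising subunit of the complex through which DDIT4 acts, rose 1.55-fold in UM-Cis. Its log2 signal was 8.13, 8.14 and 8.34 in UM-Cis and 7.52, 7.42 and 7.77 in UMSCC1. The lowest UM-Cis array lay above the highest UMSCC1 array. The means were 8.20 ± 0.12 and 7.57 ± 0.18 (SD, n = 3 each), a difference of 0.63 with a standard error of 0.14 (limma, adjusted p = 0.029). The call was lost in 4 of 6 fits without 1 array (UM-Cis array 1, adjusted p = 0.085, UM-Cis array 2, 0.111, the UMSCC1 array with no number, 0.058, and UMSCC1 array 1, 0.123), with the methods' t-test (0.0853), with the control genes set equal (0.0798) and with all probe sets tested (0.0668).

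*TSC2*, the subunit that acts on RHEB, had a log2 signal of 7.17, 7.12 and 7.19 in UM-Cis and 6.84, 6.91 and 6.996 in UMSCC1. The groups did not overlap, but the gap was narrow. The difference was 0.24 with a 95% interval from -0.04 to 0.52 (limma, adjusted p = 0.27).

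*MTOR*, the kinase of both complexes, had a log2 signal of 8.66, 8.07 and 8.46 in UM-Cis and 8.06, 7.58 and 7.74 in UMSCC1. The lines were separated by only 0.0074, between UM-Cis array 1 and the UMSCC1 array with no number. The means were 8.40 ± 0.30 and 7.79 ± 0.24 (SD, n = 3 each), a difference of 0.60 with a 95% interval from 0.15 to 1.05 that did not pass (limma, adjusted p = 0.095). In both lines array 1 was lowest and the array with no number highest, and with the label as a block the difference passed (adjusted p = 0.0164).

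*DEPTOR*, an inhibitory subunit of both complexes, had a log2 signal of 4.37, 3.99 and 3.90 in UM-Cis and 4.05, 4.23 and 3.91 in UMSCC1. All 6 values lay under the array medians, and the groups overlapped. The difference was 0.02 with a 95% interval from -0.36 to 0.41 (limma, adjusted p = 0.95), and its sign changed without the UM-Cis array with no number (-0.12) and without UMSCC1 array 2 (-0.052).

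Of the 8 genes, 5 were higher in UM-Cis with no overlap of the lines, where 14.7% of all genes were so. The 1 gene lower with no overlap, against 15.7% of all genes, was *DDIT4*. Its separation follows from its choice and supports nothing. At an adjusted p under 0.05, *SESN3* and *TSC1* were higher, where 5.91% of all genes were higher and 4.60% were lower. *DDIT4*, chosen for its decrease, was given no call. With the array label as a block, *SESN2* and *MTOR* joined those higher, against 9.79% of all genes, while 8.40% were lower. The block rests on a pairing inferred from these same arrays. These shares are a description, since the genes were not drawn without knowledge of the arrays.

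**Figure D2:**
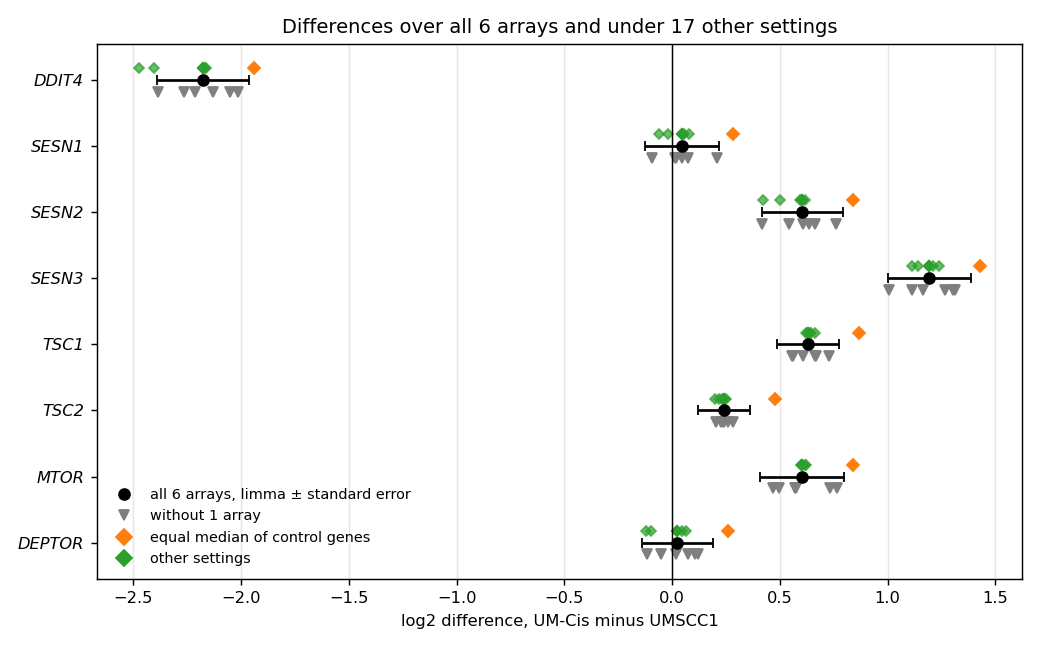
Log2 difference, UM-Cis minus UMSCC1 (x axis), of each gene (y axis) over all 6 arrays (black, with its standard error), without 1 array (grey), with the control genes set equal (orange) and under the other settings (green). *DDIT4* stayed below -1.9 in all of these, and *SESN1* and *DEPTOR* fell on both sides of 0.

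The other genes of the pathway were taken from 7 lists that hold 105 genes, of which 65 were measured, 57 of them besides the 8 above. Of these 57, 4 were higher (7.02%) and 6 were lower (10.5%) at an adjusted p under 0.05, against 5.91% and 4.60% of all genes, and 47 did not pass. Their median log2 difference was 0.01, against -0.04 over all genes. With the array label as a block, 11 were higher and 7 were lower, where 9.79% and 8.40% of all genes were so. With the control genes set equal, none of the 6 lower calls was kept, so that they changed with the scaling of the arrays. With the methods' t-test, *CAB39*, *PHLPP1* and *RHEB* were higher and *EIF4EBP1* was lower among the 57.

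In the amino acid branch, *RRAGD* and *RRAGC*, the GTPases that pair with RagA or RagB to hold mTOR complex 1 at the lysosome, rose with *SESN3*. *RRAGD* had a log2 signal of 6.41, 6.31 and 6.04 in UM-Cis and 5.13, 5.06 and 4.53 in UMSCC1. The groups lay apart, and the difference of 1.35 was 2.54-fold (limma, adjusted p = 0.0043). *RRAGC* had a log2 signal of 8.02, 8.16 and 8.19 in UM-Cis and 6.89, 7.37 and 7.17 in UMSCC1. It was 1.97-fold higher (limma, adjusted p = 0.0066). The calls of *RRAGD* and *RRAGC* held without each array in turn, with adjusted p up to 0.0277 and 0.0362, and were lost under the methods' t-test (0.0615 and 0.0566).

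*ITFG2*, a subunit of the KICSTOR complex that holds GATOR1 at the lysosome, was lower by -0.64 (limma, adjusted p = 0.023) and was not called without any 1 of the 4 numbered arrays (adjusted p up to 0.0885) or with the control genes set equal (0.495). *FLCN* and *FNIP2*, which together act on RagC and RagD, differed by 0.47 and 0.48 and did not pass (limma, adjusted p = 0.080 and 0.082), and passed with the label as a block (adjusted p = 0.041 and 0.030). In the whole list of sestrins and amino acid sensing, 3 of 23 measured genes were higher (13.0%, against 5.91% of all genes), 1 was lower (4.35%, against 4.60%) and 19 did not pass, and the median was 0.21. With the label as a block, 8 were higher and 2 were lower, where 9.79% and 8.40% of all genes were so. The lines did not overlap for 12 of the 23 with UM-Cis above (52.2%, against 14.7% of all genes) and 3 with UM-Cis below (13.0%, against 15.7%), and the list holds the 3 sestrins chosen with results known.

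Among mTOR complex subunits and their assembly factors, 7 were measured, with a median of 0.01. Of these, 2 were lower (28.6%, against 4.60% of all genes) and 0 were higher, and the list holds *MTOR* and *DEPTOR* of the 8 genes. *TTI1* and *TTI2*, which together with TELO2 stabilise mTOR and related kinases, were lower by -0.98 and -0.63 (limma, adjusted p = 0.044 and 0.026), and both calls were lost without any 1 array other than the UM-Cis array with no number (adjusted p up to 0.152 and 0.103). *TTI1* had a log2 signal of 8.69, 7.78 and 7.99 in UM-Cis and 9.43, 8.89 and 9.07 in UMSCC1. Its lines did not overlap, and the array with no number was the highest of each line. *PRR5L* (0.18), a protein that binds mTOR complex 2, and *AKT1S1* (-0.06), an inhibitory subunit of mTOR complex 1, did not pass (limma, adjusted p = 0.49 and 0.87).

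In the TSC complex and RHEB, 1 of 4 measured genes, *TSC1*, was called higher (25%, against 5.91% of all genes) and 0 were lower. The median was 0.40, and the list holds *TSC1* and *TSC2*, which were chosen with results known. *RHEB*, the GTPase that activates mTOR complex 1, had a log2 signal of 6.09, 6.16 and 6.17 in UM-Cis and 5.85, 5.79 and 5.71 in UMSCC1. The lines did not overlap, and the difference of 0.36 did not pass (limma, adjusted p = 0.107), nor did that of its relative *RHEBL1* (0.45, adjusted p = 0.285).

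Of the partners of DDIT4, *CUL4A*, a scaffold of the ubiquitin ligase that marks the DDIT4 protein for breakdown, was lower as well. Its log2 signal was 8.75, 8.44 and 8.21 in UM-Cis and 9.24, 9.21 and 9.31 in UMSCC1. No UM-Cis array reached a UMSCC1 array, and the difference was -0.79 (limma, adjusted p = 0.018), with the call lost without any 1 of the 4 numbered arrays (adjusted p up to 0.0745), with the methods' t-test (0.0868) and with the control genes set equal (0.210). *BTRC*, the receptor subunit named for the same ligase, differed by 0.59 and did not pass (limma, adjusted p = 0.27), and passed with the label as a block (adjusted p = 0.017). *DDIT4L*, the relative of *DDIT4*, differed by -0.15 (adjusted p = 0.64) and *TXNIP*, whose protein forms a complex with DDIT4, by 0.21 (adjusted p = 0.76).

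In the energy branch, 1 of 5 measured genes was higher (20%, against 5.91% of all genes) and 0 were lower. The higher gene was *CAB39*, the scaffold that activates the AMPK kinase LKB1 (0.63, limma, adjusted p = 0.017). Its call was lost without any 1 of the 4 numbered arrays (limma, adjusted p up to 0.0752). In the growth factor branch, 1 of 11 measured genes was higher (9.09%, against 5.91% of all genes) and 0 were lower. The higher gene was *PHLPP1*, a phosphatase of AKT (0.88, limma, adjusted p = 0.0071). *PHLPP1* had a log2 signal of 7.73, 7.38 and 7.54 in UM-Cis and 6.55, 6.76 and 6.71 in UMSCC1. It passed in all 17 other settings. The receptors *IGF1R* (0.53, adjusted p = 0.057) and *INSR* (0.83, adjusted p = 0.094) did not pass and did so with the label as a block (adjusted p = 0.032 and 0.0094).

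Downstream of mTOR complex 1, 12 genes were measured, with a median of -0.09. Of these, 2 were lower (16.7%, against 4.60% of all genes) and 0 were higher. *EIF4EBP1*, whose protein binds the cap-binding factor eIF4E until mTOR phosphorylates it, had a log2 signal of 7.59, 7.47 and 7.504 in UM-Cis and 8.20, 8.34 and 8.34 in UMSCC1. The spread within each line was small beside the gap, and the difference was -0.77, or 1.71-fold lower (limma, adjusted p = 0.0066). *EIF4EBP1* passed without each array in turn (adjusted p up to 0.0387) and did not pass with the control genes set equal (0.269). *EEF2K*, the kinase that slows translation elongation, was lower by -0.57 (limma, adjusted p = 0.045), and it was likewise called with 1 array fewer only with the unnumbered UM-Cis array left out (adjusted p up to 0.152 otherwise). *GRB10*, *EIF4B* and *PDCD4* had differences of -0.35, -0.28 and -0.23 and did not pass.

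**Figure D3:**
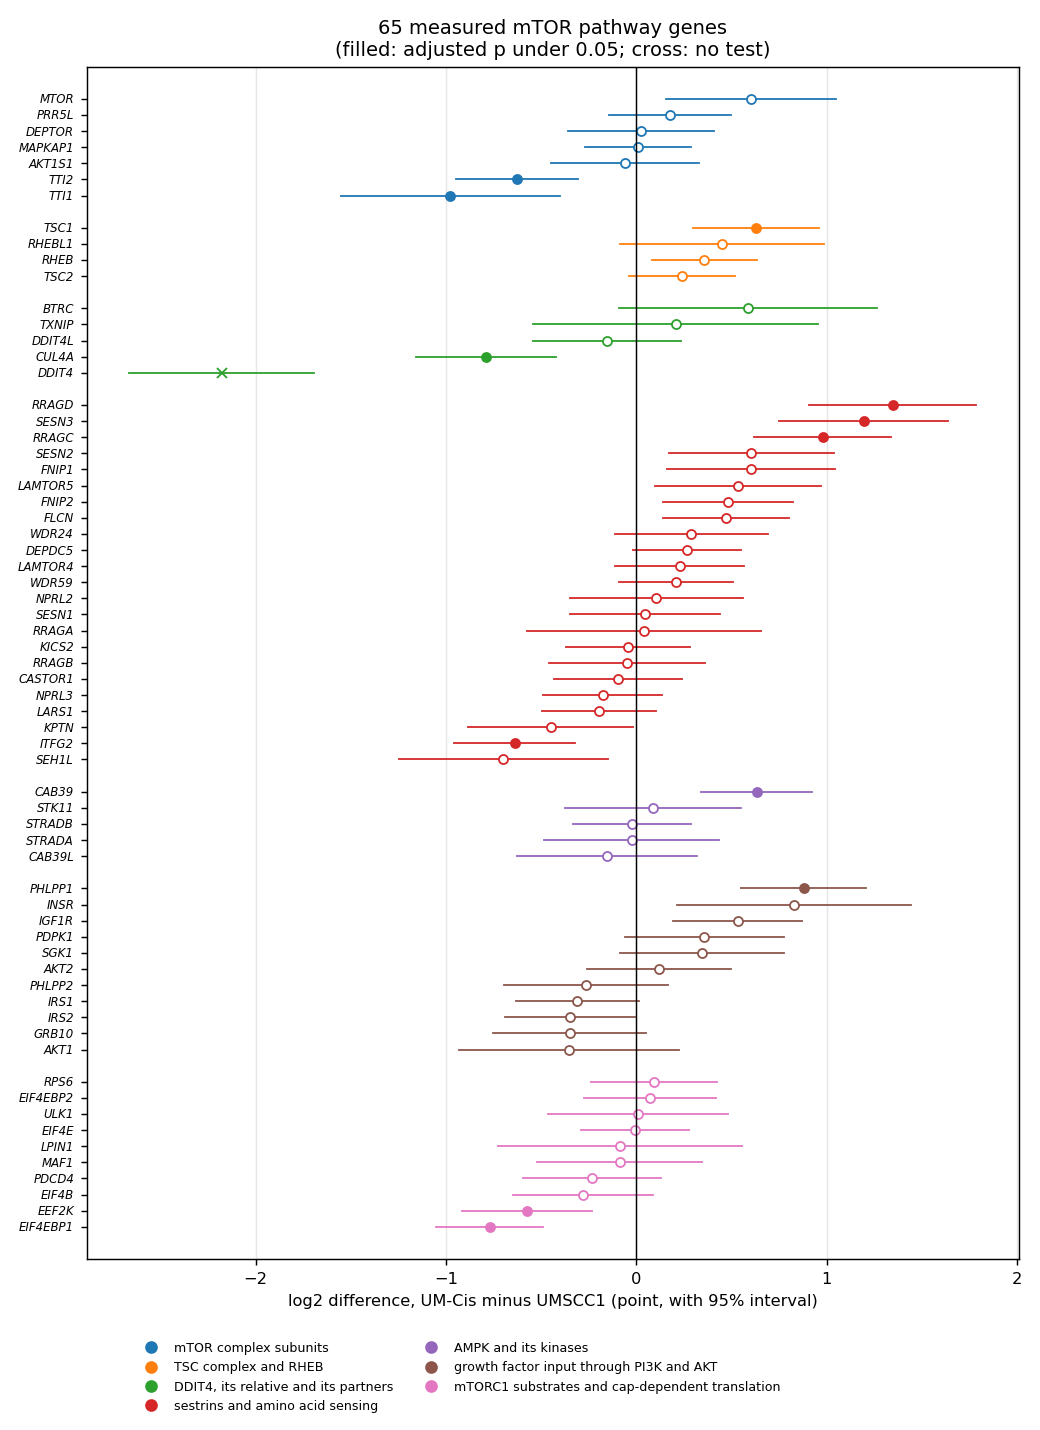
Log2 difference, UM-Cis minus UMSCC1 (x axis), with its 95% interval for the 65 measured genes of the pathway (y axis), each drawn under the first list that holds it. Filled points passed at an adjusted p under 0.05 and *DDIT4* is a cross with no test. *RRAGD*, *SESN3* and *RRAGC* lay farthest to the right and *DDIT4* farthest to the left.

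*DDIT4* is induced through several responses, and the other genes of each were read in the same fit. Of 16 other measured genes of the ATF4 stress response, 1 was higher (6.25%, against 5.91% of all genes) and 1 was lower (6.25%, against 4.60%). The other 14 did not pass, and the median was -0.06. *ATF3*, a transcription factor of the stress response, was higher by 1.03 (7.26, 6.73 and 6.39 in UM-Cis and 5.98, 5.85 and 5.48 in UMSCC1, limma, adjusted p = 0.029), a call that was not returned without UM-Cis array 1 or either numbered UMSCC1 array (adjusted p up to 0.0992). *SHMT2*, a mitochondrial enzyme of serine use, was lower by -0.64 (limma, adjusted p = 0.029) and was not called with the control genes set equal (0.416) or without any 1 of the 4 numbered arrays (up to 0.115). *TRIB3* (-0.44) and *VLDLR* (0.41) did not pass (limma, adjusted p = 0.086 and 0.126).

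Of 7 other measured p53 targets, 0 passed in limma, where 5.91% of all genes were higher and 4.60% lower. The methods' t-test likewise called 0, where it called 322 of all 14812 genes higher and 248 lower. At an unadjusted p under 0.05 in limma 1 was lower, where 1780 of all genes were so. With the label as a block 1 was lower, against 8.40% of all genes. The median of the 7 was -0.15. *TIGAR*, a fructose bisphosphatase, had a log2 signal of 6.72, 6.85 and 6.60 in UM-Cis and 7.40, 7.12 and 7.22 in UMSCC1. Its difference of -0.52 missed the threshold (limma, adjusted p = 0.0506) and passed with the label as a block (adjusted p = 0.0388). *PLK3*, a stress-response kinase, differed by 0.31 (adjusted p = 0.23).

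Of 13 other measured hypoxia targets, 3 were higher (23.1%, against 5.91% of all genes) and 2 were lower (15.4%, against 4.60%). *VEGFA*, the angiogenic growth factor, had a log2 signal of 5.89, 5.78 and 5.64 in UM-Cis and 6.98, 6.52 and 6.74 in UMSCC1. It was lower by -0.97 (limma, adjusted p = 0.0070), as was *ERO1A*, an oxidase of the endoplasmic reticulum (-0.56, adjusted p = 0.042). *BNIP3L*, a receptor for mitophagy, was higher, with 10.01, 9.79 and 9.90 in UM-Cis and 8.29, 9.10 and 9.06 in UMSCC1 (1.09, limma, adjusted p = 0.019), together with *ANKRD37* (0.60, adjusted p = 0.032) and *BNIP3* (0.59). The list median was 0.15. Of these, *VEGFA* kept its call without each array in turn (adjusted p up to 0.0357) and lost it with the control genes set equal (0.0824), *BNIP3L* lost it without UM-Cis array 1 or 2 (up to 0.0662), *ERO1A* without any 1 other than the UM-Cis array with no number (up to 0.145), and *ANKRD37* without any 1 of the 6 (up to 0.133).

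Of 10 other measured glucocorticoid targets, 1 was higher (10%, against 5.91% of all genes) and 0 were lower with limma (against 4.60%). Their median difference was 0.27. The lines did not overlap for 3 with UM-Cis above (30%, against 14.7% of all genes) and 3 below (30%, against 15.7%). At an unadjusted p under 0.05, 2 were higher and 3 lower, where 1874 and 1780 of all 14812 genes were so. *DUSP1*, a phosphatase of MAP kinases, had a log2 signal of 10.20, 10.40 and 10.40 in UM-Cis and 7.51, 7.79 and 8.08 in UMSCC1. It was 5.83-fold higher (limma, adjusted p = 0.00039) and passed in all 17 other settings, in the direction opposite to *DDIT4* in the same list. *FKBP5*, *KLF15* and *ZBTB16*, further targets of the receptor, had differences of -0.56, -0.51 and -0.51 and did not pass (limma, adjusted p from 0.086 to 0.111), and *FKBP5* passed with the label as a block (adjusted p = 0.036).

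Of 10 measured transcription factors known to act on *DDIT4* or *SESN2*, *JUN* was higher (10%, against 5.91% of all genes) and 9 did not pass. *JUN*, a subunit of AP-1, had a log2 signal of 9.20, 9.81 and 9.79 in UM-Cis and 7.72, 8.36 and 8.48 in UMSCC1. It was 2.67-fold higher (limma, adjusted p = 0.0092). *NFE2L2* (0.48), *DDIT3* (0.74) and *ARNT* (0.33) did not pass (limma, adjusted p = 0.110, 0.152 and 0.159), and *NFE2L2* passed with the label as a block (adjusted p = 0.030). Among the genes named as called in these responses and factors, *DUSP1* passed with the methods' t-test and *ATF3*, *SHMT2*, *VEGFA*, *ERO1A*, *BNIP3L*, *ANKRD37*, *BNIP3* and *JUN* did not (0.0578 for *VEGFA*, 0.101 for *JUN* and up to 0.158 for *ATF3*).

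**Figure D4:**
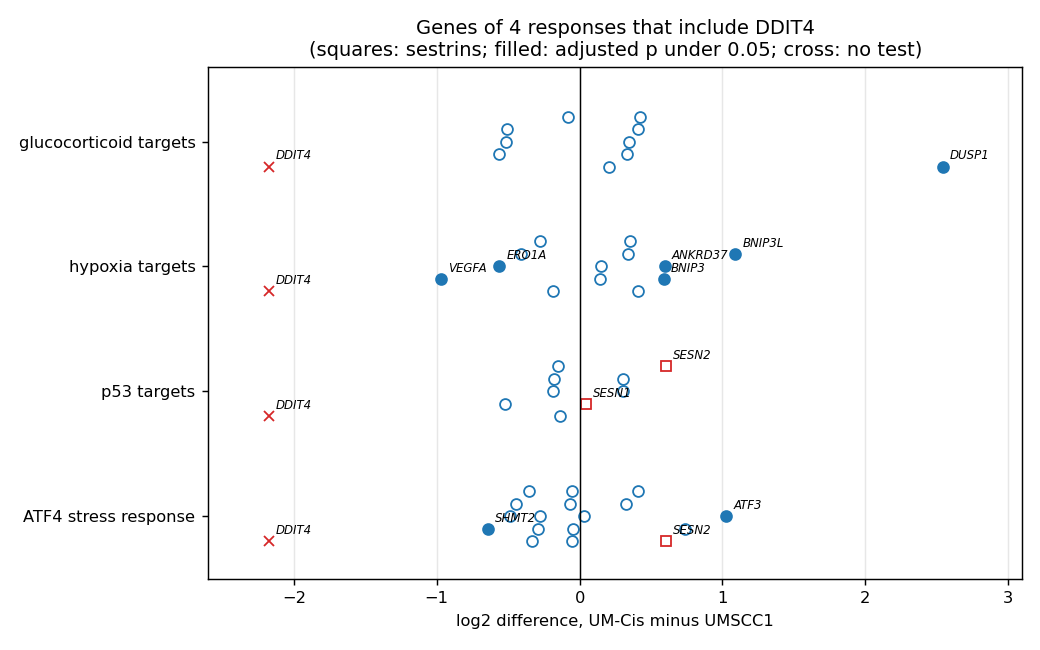
Log2 difference, UM-Cis minus UMSCC1 (x axis), of the measured genes in 4 responses known to induce *DDIT4* (y axis, points spread vertically for legibility). *DDIT4* (cross, no test) lay at -2.18 in each row, and the called genes lay on both sides of 0 in the ATF4 and hypoxia rows.

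Genes with the most similar profile over the 6 arrays were listed by the root mean square distance between log2 signals centred on each gene's mean, as a description in which the points share arrays and the line difference dominates. The nearest to *DDIT4* were *MPZL2* (distance 0.185), *ANXA9*, *ZNF257*, *DIAPH3* and *MBOAT1* (0.221), whose differences ran from -2.25 (*ANXA9*) to -1.95 (*ZNF257*). The nearest to *SESN3* were *ETV4* (0.0625), *CFAP263*, *GDA*, *IL18R1* and *PMAIP1* (0.0906). *SESN2* lay nearest to *CEMIP2* (0.0763), *MTOR* to *FNBP1L* (0.0461) and *TSC1* to *ZNF655* (0.0382). Distances for a small difference are small by construction, so they order genes around 1 gene and not between genes.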

How the data were processed

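Total RNA of 3 UM-Cis and 3 UMSCC1 samples was measured on Affymetrix Human Gene ST arrays. The values the authors deposited were log2 signals per probe set, quantile normalized according to their methods, and the submitters' processing notes name RMA. No detection call was used, so signal over background is unknown, and precision is limited by the small number of arrays.

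Of 44629 probe sets, 15835 had 1 symbol, 0 had several and 28794 had none here, and all 15835 matched a reference gene table (GRCh38.p14). The brightest probe set per gene was kept (14812 genes, no filter). Lines were compared by the two-sided test of limma (version 3.58.1, under R 4.3.3), with a linear model per gene, moderated variances, Benjamini-Hochberg adjustment and a threshold of 0.05. Adjusted p-values in the text are from limma unless another test is named. The step was tested on simulated data. The methods' t-test was unpaired with equal variance, with the same adjustment. Sequence words were searched in RefSeq upstream windows. Figures were drawn with matplotlib 3.10.9.

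The members and the 15 gene lists were chosen with earlier results of these data known, and lists were described by counts and medians with no set test. Genes named were the 10 candidates, up to 5 called and 3 not called genes with the smallest adjusted p per list, and the 5 nearest profiles per member. *BNIP3* was named outside this rule after its value was seen.

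To check whether labels pair the arrays, deviations from the line means were correlated between arrays with the same label. The correlation was 0.505 with no number, 0.237 for 1 and 0.357 for 2. On that ground the label was fitted as a block in an alternative, and the main fit held no block. The labels and methods name neither a common batch nor a common day. Arrays 1 and 2 correlated across labels by 0.265 and 0.233, and the array with no number of 1 line by -0.433 to -0.327 with the numbered arrays of the other, so mainly the unnumbered arrays carry the pairing. Alternatives were the replicate block, array weights, a trended prior, renormalization (equal control genes, quantile, cyclic loess), the mean of probe sets, all probe sets, a dim probe set filter, and leaving out each array. The numbered arrays alone were added after the data were seen.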

Additional observations from a re-analysis of the deposited data

How the results depend on the processing

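*DDIT4*, chosen for its decrease, was lower in all 17 other settings, from -2.39 to -2.02 without 1 array, which does not support its difference. *TSC2* kept its direction and did not pass in any (0.20 to 0.28 without 1 array). *SESN3* (1.00 to 1.31 without 1 array) lost its call with the methods' t-test, where the difference is the same 1.19. *TSC1* (0.56 to 0.73 without 1 array) lost it with the methods' t-test and with all probe sets tested (0.63 in both) and with equal control genes (0.87). With the replicate block *SESN2* (0.60) and *MTOR* (0.60) passed, and with array weights *SESN2* (0.50, adjusted p = 0.0435) and *MTOR* (0.62, adjusted p = 0.0230) passed, whereas without 1 array *SESN2* ran from 0.42 to 0.76 and *MTOR* from 0.47 to 0.76 and neither passed in any of the 6 fits. The block changed no other call among the 8 genes. *SESN1* reversed with array weights (-0.018), with the numbered arrays alone (-0.063) and without the UM-Cis array with no number (-0.093), and without 1 array it ran from -0.093 to 0.21. *DEPTOR* reversed with array weights (-0.10), with the numbered arrays alone (-0.12), without the UM-Cis array with no number (-0.12) and without UMSCC1 array 2 (-0.052), ran from -0.12 to 0.12 without 1 array, and was not in the fit with the filter on dim probe sets. Neither passed in any setting.

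Over all genes, 876 were higher and 681 lower with limma. The counts were 1450 and 1244 with the replicate block, 1594 and 1508 with array weights, 1387 and 1301 with the numbered arrays alone, 322 and 248 with the methods' t-test, and 362 and 252 at 2-fold and an unadjusted p under 0.05, and 166 were lower with equal control genes. Without 1 array they ran from 433 to 848 higher and from 324 to 738 lower. Of the 65 pathway genes, 6 were higher and 7 lower. The lower counts here hold *DDIT4*, which was chosen for its decrease and supports nothing, and without it 6 were lower. With the replicate block 15 were higher, with array weights 15 and with the numbered arrays alone 10. Under the methods' t-test the counts were 3 and 2, at 2-fold and an unadjusted p 2 and 1, with equal control genes 1 (*DDIT4* itself) was lower and with all probe sets 3. Without 1 array 4 to 7 were higher and 2 to 8 lower. The causes were not tested.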
